A study of Homo sapiens with 12 samples.

Results

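The comparison set NB-1 cells given BEZ-235 and SAHA together against NB-1 cells given the solvent DMSO, over every gene of the deposited count table. It rests on 6 of the 12 libraries of the series, 3 from each of these groups. The table lists 58051 genes, and 17774 of them passed the filter on low counts. NB-1 is an established human neuroblastoma line with amplified MYCN and ALK, so all results are those of a single line. The cultures of the combination received 0.5 µM BEZ-235 and 0.5 µM SAHA for 48 h, and the DMSO cultures received 0 µM of each for the same time. The remaining groups, 0.5 µM BEZ-235 alone and 0.5 µM SAHA alone, entered the same model and are set beside the combination where it helps. All cultures grew in RPMI 1640 medium with fetal bovine serum, and polyadenylated RNA was sequenced from stranded libraries.

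BEZ-235, also named dactolisib, inhibits PI3K and mTOR kinases. PI3K acts through AKT, which keeps FOXO transcription factors out of the nucleus, and mTOR drives the making of ribosomes, proteins and lipids. SAHA (vorinostat) blocks histone deacetylases, the enzymes that take acetyl groups off histones and other proteins. Neuroblastoma arises from precursors of sympathetic neurons, and in part of these tumours the receptor kinase ALK signals through PI3K while the transcription factor MYCN drives growth. HBP1, a transcriptional repressor whose gene is a FOXO target, stands in the series' title as a gene that ALK lowers and as a brake on MYCN.

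The 6 libraries held 17662919 to 22274529 counts and detected 24467 to 25674 genes. Transcripts of the mitochondrial genome took 8.5 to 9.32% of counts with DMSO and 6.60 to 8.48% with both drugs. Levels are given as CPM, read counts scaled to the size of each library, which is not divided by transcript length and serves only to compare a gene with itself. Differences are log2 fold changes of both drugs against DMSO ± SE, n = 3 per group. Adjusted p-values are 2-sided Benjamini-Hochberg values of edgeR's quasi-likelihood test over all 17774 genes, and a gene is called at a value under 0.05.

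The combination libraries followed the GC content of transcripts. With genes in 5 equal groups by GC content, the median log2 fold change in the lowest group (26.5 to 41.1%) was -0.45, and over the next groups it was -0.15, 0.11, 0.24 and, for the genes with 57.8 to 75.3% GC, 0.45. All 3 combination libraries showed it, with a gap between the top and the bottom group of 0.56 in replicate 1, 0.85 in replicate 2 and 1.15 in replicate 3. In the DMSO libraries the gap ran from -0.30 to 0.23, in those with BEZ-235 alone from -0.39 to 0.077 and in those with SAHA alone from -0.30 to -0.11. Whether it arose in the cells, in RNA handling or in library preparation was not tested. Differences between both drugs and DMSO are therefore given below as measured and, as "corrected", after the trend with GC content and transcript length was taken out of each library. Levels in CPM, and differences of single genes with 1 drug alone, are as measured unless called corrected.

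**Figure D1:**
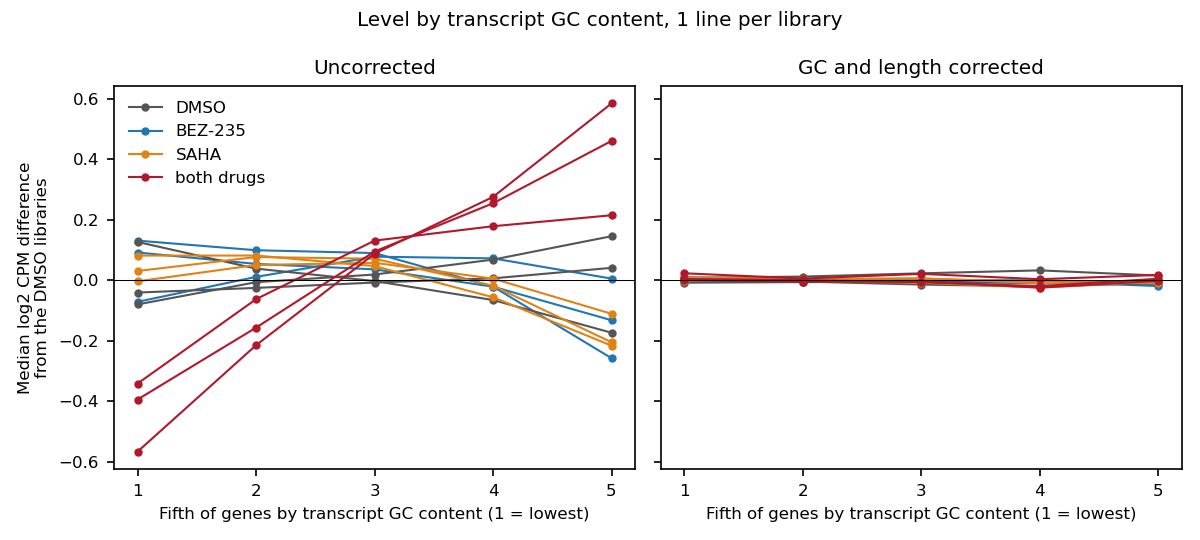
Median log2 CPM difference of each library from the DMSO libraries (y axis) in 5 equal groups of genes ordered by transcript GC content (x axis), 1 line per library, before (left) and after (right) correction for GC content and length. Before correction the 3 combination lines climb from low to high GC content, and after it all 12 lines lie near 0.

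HBP1 was higher and MYCN lower with both drugs, and ALK passed in neither fit. HBP1 measured 59.8, 65.5 and 61.99 CPM with DMSO and 106, 76.6 and 78.3 CPM with both drugs. All combination libraries lay above all DMSO libraries, with replicate 1 of the combination highest. The difference was 0.48 ± 0.11 (adjusted p = 8.5e-04), and 0.73 ± 0.07 after correction (adjusted p = 7.7e-08). Without replicate 1 of the combination it was 0.30 uncorrected, and 0.63 corrected. BEZ-235 alone gave 0.86 ± 0.11 and SAHA alone 0.29 ± 0.10 (adjusted p = 4.3e-06 and 0.0321), and after correction 0.86 ± 0.07 and 0.25 ± 0.07. The interaction, which is the change with both drugs minus the sum of the changes with each, was -0.68 ± 0.15 (adjusted p = 0.00212; corrected -0.38 ± 0.10, adjusted p = 0.0115), so the combination gave less than that sum. Against BEZ-235 alone the combination stood at -0.39 ± 0.10 (adjusted p = 0.00423; corrected -0.13 ± 0.07, adjusted p = 0.113). Against SAHA alone it stood at 0.18 ± 0.10 (adjusted p = 0.143; corrected 0.48 ± 0.07, adjusted p = 1.6e-05).

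MYCN measured 926, 1157 and 1103 CPM with DMSO and 769.6, 719 and 887 CPM with both drugs. Every combination library lay below every DMSO library. The difference was -0.42 ± 0.10 (adjusted p = 0.001397), and -0.69 ± 0.08 after correction (adjusted p = 1.5e-06). SAHA alone gave -0.34 ± 0.10 (corrected -0.28 ± 0.08) and BEZ-235 alone -0.04 ± 0.10 (corrected 0.02 ± 0.08). The MYCN interaction was -0.04 ± 0.14 uncorrected and -0.42 ± 0.12 corrected (adjusted p = 0.856 and 0.0191). ALK measured 4622, 3802 and 4370.3 CPM with DMSO and 4329.6, 4791 and 5259 CPM with both drugs, and the groups overlapped. Its difference was 0.17 ± 0.09 (adjusted p = 0.119), and -0.18 ± 0.08 after correction (adjusted p = 0.0538), so its sign turned with the correction.

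**Figure D2:**
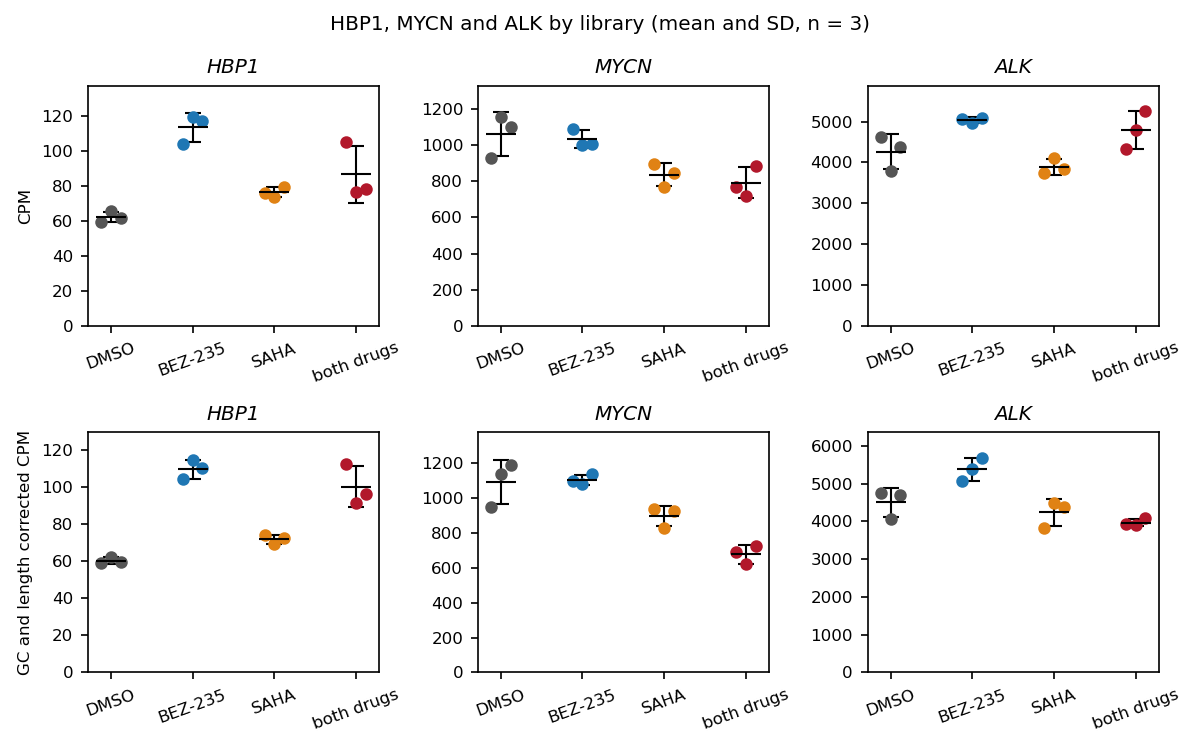
HBP1, MYCN and ALK in CPM (y axis) by group (x axis), measured in the upper row and corrected in the lower. Points are libraries, and the bar with whiskers is the mean ± SD, n = 3. HBP1 lies above the DMSO libraries with both drugs but highest with BEZ-235 alone, MYCN is lowest with both drugs after correction, and the ALK mean with both drugs lies above that of DMSO as measured and below it after correction.

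The stretch of the HBP1 promoter shown here, with those of TXNIP and FOXO4, holds the FOXO letters TGTTTAC or their reverse complement, in capitals. The windows searched are the RefSeq promoters of build GRCh38.p14, from 250 bases before to 50 after a gene's start, on both strands; 11120 of the tested genes had one.
HBP1, chr7:107168783-107168882, plus strand: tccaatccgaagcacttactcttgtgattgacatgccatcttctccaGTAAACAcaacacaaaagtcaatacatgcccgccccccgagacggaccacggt
TXNIP, chr1:145996651-145996750, minus strand: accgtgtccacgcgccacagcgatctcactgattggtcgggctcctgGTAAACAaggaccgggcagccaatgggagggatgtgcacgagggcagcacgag
FOXO4, chrX:71095801-71095900, plus strand: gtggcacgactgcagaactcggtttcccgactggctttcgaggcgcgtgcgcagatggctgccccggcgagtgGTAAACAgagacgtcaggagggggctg
Among FOXO factors and FOXO target genes with a promoter in the table, 5 of 24 (20.8%) held these letters, against 2.31% of the promoters of all tested genes and 3.42% of the 35116 promoters in the table. A match describes the letters and is not evidence of binding.

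With both drugs 11451 genes were called, 64.4% of those tested. Of these, 5899 were higher (33.2% of tested genes) and 5552 lower (31.2%). After correction 11671 were called (65.7%), 5804 higher (32.7%) and 5867 lower (33.0%). Both fits called 9277 genes in the same direction (52.2%) and 101 in opposite directions (0.568%). Changes of at least 2-fold were more often increases: 2743 genes rose and 1747 fell by that much, and 2362 and 1626 after correction. Against the same DMSO libraries, BEZ-235 alone called 50.9% of genes (corrected 56.2%) and SAHA alone 43.1% (corrected 49.7%). These shares are the background for each count of a gene list below.

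The 12 lowest and 12 highest genes were taken among those whose mean log2 CPM was 3 or more, so that less abundant genes such as CDC45, described below, could fall further without being among them. They were also chosen to have no overlap between the groups, as 32.2% of tested genes had on the lower side and 34.0% on the higher side. Several of the lowest are genes of DNA replication. UHRF1, which guides maintenance DNA methylation in S phase, measured 57.04, 58.8 and 54.7 CPM with DMSO and 1.65, 1.60 and 2.504 CPM with both drugs. The difference was -4.87 ± 0.15 (adjusted p = 2.7e-13), and -5.08 ± 0.14 after correction (adjusted p = 1.3e-14). RRM2, the subunit of ribonucleotide reductase that limits the supply of DNA building blocks, measured 140.1, 133 and 139.9 CPM with DMSO and 7.39, 5.63 and 7.37 CPM with both drugs. That was -4.34 ± 0.13 (corrected -4.29 ± 0.12). MCM10, which helps to fire replication origins, stood at -4.17 ± 0.11 (corrected -3.98 ± 0.09), and DTL, which directs the destruction of CDT1 in S phase, at -3.74 ± 0.11 (corrected -3.47 ± 0.10). CDC6, the loader of the replicative helicase, stood at -3.64 ± 0.11 (corrected -3.61 ± 0.09), and GINS1, part of that helicase, at -3.54 ± 0.14 (corrected -3.21 ± 0.12). The transcription factor E2F1, which drives entry into S phase, was at -3.47 ± 0.12 (corrected -3.89 ± 0.10). CENPK, a kinetochore protein, was at -3.75 ± 0.15 (corrected -3.06 ± 0.12), and DDIAS, an apoptosis suppressor, at -4.10 ± 0.15 (corrected -3.62 ± 0.12).

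Of these 9 genes, UHRF1 stood at -4.21 ± 0.14 with BEZ-235 alone and -0.93 ± 0.11 with SAHA alone, CDC6 at -3.73 ± 0.11 with BEZ-235 alone and -0.32 ± 0.09 with SAHA alone, and DDIAS at -2.81 ± 0.13 with BEZ-235 alone and -0.49 ± 0.11 with SAHA alone. The single-drug values share the DMSO libraries with those of the combination. Also among the lowest were 2 genes of other kinds. H19, a noncoding RNA made from the maternal allele before birth, measured 4427, 4111 and 3397 CPM with DMSO and 244, 302 and 317 CPM with both drugs. Its difference was -3.79 ± 0.17 (corrected -4.23 ± 0.15), with -1.86 ± 0.15 with BEZ-235 alone and -3.26 ± 0.16 with SAHA alone. MFAP4, a matrix protein gene, measured 105, 116 and 108 CPM with DMSO and 7.23, 6.73 and 7.78 CPM with both drugs, a difference of -3.91 ± 0.11 (corrected -4.18 ± 0.10), with -1.77 ± 0.10 with BEZ-235 alone and -3.21 ± 0.10 with SAHA alone. For both, the value with SAHA alone lay nearer to that of the combination than the value with BEZ-235 alone did.

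The highest of these genes was DHRS2, a dehydrogenase gene known to respond to deacetylase inhibitors. It measured 1.57, 1.65 and 1.25 CPM with DMSO and 104, 77.2 and 114 CPM with both drugs. The 3 combination libraries were the highest of the series, and the difference was 6.05 ± 0.17 (adjusted p = 2.1e-13), and 5.91 ± 0.17 after correction (adjusted p = 1.2e-13). TAC3, which encodes neurokinin B, measured 1.097, 1.27 and 1.02 CPM with DMSO and 35.6, 33.5 and 34.96 CPM with both drugs, a difference of 4.94 ± 0.24 (corrected 4.77 ± 0.25). RGS9, a brake on G protein signalling, measured 8.93, 7.76 and 7.16 CPM with DMSO and 123, 118 and 125 CPM with both drugs, a difference of 3.94 ± 0.10 (corrected 4.15 ± 0.10). GSN, the actin-severing protein gelsolin, was at 3.77 ± 0.26 (corrected 3.62 ± 0.28), and SPATS1 at 4.0 ± 0.16 (corrected 3.86 ± 0.16). EFNA3, an ephrin ligand, was at 3.53 ± 0.11 (corrected 3.13 ± 0.10), CADM3, a neural adhesion molecule, at 3.29 ± 0.09 (corrected 3.02 ± 0.08), and BCAN, the matrix proteoglycan brevican, at 3.26 ± 0.13 (corrected 2.84 ± 0.09). NDRG1, a growth-restraining gene that MYCN represses, stood at 3.30 ± 0.15 (corrected 3.16 ± 0.14), and ETNK2, an ethanolamine kinase gene, at 3.24 ± 0.11 (corrected 2.90 ± 0.10). The FOXO targets BMF, a cell death protein of the BCL2 family, and DEPP1 stood at 3.28 ± 0.12 (corrected 3.05 ± 0.09) and 3.23 ± 0.15 (corrected 2.96 ± 0.13). These 12 genes were chosen to have no overlap between the groups, as 66.2% of tested genes had (34.0% higher and 32.2% lower).

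**Figure D3:**
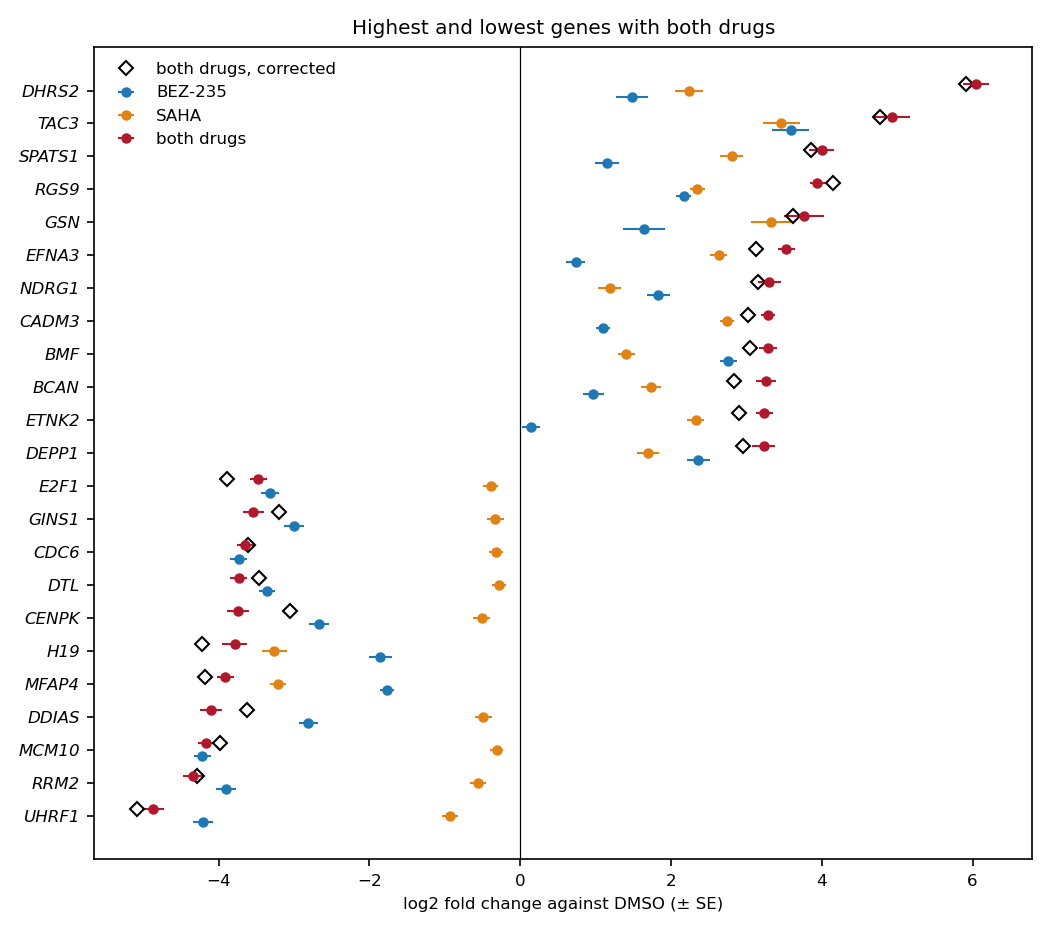
Log2 fold change against DMSO (x axis, ± SE, n = 3 per group) of the 12 highest and 11 of the 12 lowest genes with both drugs among those whose mean log2 CPM was 3 or more, with each single drug beside it and the corrected value as an open diamond. Of the lowest genes, 9 lie nearer to their BEZ-235 points than to their SAHA points, H19 and MFAP4 nearer to SAHA, while DHRS2 lies far to the right of either single drug.

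Replication genes fell as a group. Of 36 genes of DNA replication and G1/S, 0 were higher and 35 lower (corrected 0 and 36), and the median log2 fold change was -2.66 (corrected -2.75), against 0.03 (corrected 0.0031) over all genes. CDT1, the partner of CDC6 in licensing origins, was the member that did not pass uncorrected (-0.24 ± 0.18); corrected it was -0.72 ± 0.14, and without replicate 3 of the combination, uncorrected, -0.54, which passed. CDC45, part of the active helicase, measured 31.9, 32.9 and 30.6 CPM with DMSO and 1.22, 1.54 and 1.27 CPM with both drugs, a difference of -4.56 ± 0.12 (corrected -4.69 ± 0.11). The same genes had a median of -2.20 (corrected -2.20) with BEZ-235 alone and -0.37 (corrected -0.38) with SAHA alone.

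The promoters of 4 of them are shown because they hold letters that E2F factors are known to bind. Searched were TTTCCCGC, TTTGGCGC, TTTCGCGC, TTTGCCGC, TTCCCGCC and TTGGCGCC on both strands, some of which overlap one another, so that a promoter is counted once. Capitals mark every match.
UHRF1, chr19:4909396-4909495, plus strand: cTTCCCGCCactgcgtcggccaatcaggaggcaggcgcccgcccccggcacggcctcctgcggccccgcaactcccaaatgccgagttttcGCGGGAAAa
CDC6, chr17:40287829-40287928, plus strand: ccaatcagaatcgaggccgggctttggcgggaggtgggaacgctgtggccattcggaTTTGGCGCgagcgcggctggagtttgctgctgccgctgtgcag
GINS1, chr20:25407623-25407722, plus strand: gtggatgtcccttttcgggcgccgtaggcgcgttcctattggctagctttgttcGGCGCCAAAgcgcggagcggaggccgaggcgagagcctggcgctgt
E2F1, chr20:33686359-33686458, minus strand: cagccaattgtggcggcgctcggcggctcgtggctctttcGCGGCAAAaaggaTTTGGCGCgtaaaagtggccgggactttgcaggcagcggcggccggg
These letters stood in 22 of 31 (70.97%) of the promoters of replication genes found in the table. They stood in 9.78% of promoters of all tested genes and in 6.26% of all promoters. Among mitosis genes the count was 4 of 29 (13.8%).

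Mitosis genes fell too, to a smaller extent. Of 36 genes of mitosis and G2/M, 0 were higher and 36 lower (corrected 0 and 35), with a median of -1.93 (corrected -1.72). BUB3, a checkpoint protein, was the member lost on correction, at -0.26 ± 0.08 (corrected -0.01 ± 0.08). BUB1B, a kinase of the spindle checkpoint, measured 138, 142 and 142 CPM with DMSO and 28.7, 22.5 and 22.8 CPM with both drugs, a difference of -2.52 ± 0.09 (corrected -2.31 ± 0.06). CDK1, the kinase that starts mitosis, was at -2.57 ± 0.10 (corrected -2.01 ± 0.06), and NUSAP1, a spindle protein, at -2.39 ± 0.09 (corrected -2.15 ± 0.07). Their median was -1.69 (corrected -1.71) with BEZ-235 alone and 0.29 (corrected 0.28) with SAHA alone, where 23 of the 36 were higher (22.2% of all tested genes were). The CHR, a promoter element of mitotic genes, was searched as TTTGAA and TTCGAA on both strands.
BUB1B, chr15:40160999-40161098, plus strand: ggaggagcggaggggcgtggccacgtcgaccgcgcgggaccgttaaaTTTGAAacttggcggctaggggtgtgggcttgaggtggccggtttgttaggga
CDK1, chr10:60778123-60778222, plus strand: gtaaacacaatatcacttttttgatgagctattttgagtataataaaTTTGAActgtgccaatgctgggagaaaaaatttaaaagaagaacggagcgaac
NUSAP1, chr15:41332831-41332930, plus strand: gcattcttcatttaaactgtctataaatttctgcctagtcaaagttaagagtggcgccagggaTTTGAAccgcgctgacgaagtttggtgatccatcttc
In these stretches the match is in capitals. It stood in 21 of 29 (72.4%) of the mitosis promoters, in 2 of 31 (6.45%) of the replication promoters and in 11.2% of the promoters of all tested genes.

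Regulators of the cycle were more often lower than higher. CDKN1B, the inhibitor p27 and a FOXO target, measured 92.97, 89.8 and 92.5 CPM with DMSO and 119, 141 and 150.4 CPM with both drugs, a difference of 0.58 ± 0.10 (corrected 0.55 ± 0.11). CDKN1A, the inhibitor p21, measured 198, 218 and 196 CPM with DMSO and 145, 149 and 164 CPM with both drugs. Its difference was -0.42 ± 0.08 (corrected -0.72 ± 0.06), with -1.22 ± 0.08 with BEZ-235 alone and 0.50 ± 0.08 with SAHA alone. The repressive factors E2F7 and E2F8, themselves E2F targets, were lower, at -3.96 ± 0.27 (corrected -3.79 ± 0.25) and -3.05 ± 0.16 (corrected -3.0 ± 0.15). LIN9, a subunit of the complex that turns on mitotic genes, was at -2.51 ± 0.13 (corrected -2.16 ± 0.10). In all, 4 were higher and 14 lower (corrected 2 and 13) among 19 D cyclins, CDK inhibitors, pocket proteins and their partners. Their median was -0.49 (corrected -0.66). CCND2 had too few counts to be tested.

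FOXO target genes were more often higher. Of 28 tested FOXO factors and targets, 16 were higher and 4 lower (corrected 19 and 3), with a median of 0.47 (corrected 0.49); TRIM63 and PDK4 had too few counts. FOXO4, one of the factors, measured 5.38, 6.12 and 6.63 CPM with DMSO and 21.7, 23.2 and 23.9 CPM with both drugs, a difference of 1.92 ± 0.11 (corrected 1.68 ± 0.10). TXNIP, which binds thioredoxin and limits glucose uptake, measured 196, 177 and 167 CPM with DMSO and 443, 427 and 400.0 CPM with both drugs, a difference of 1.23 ± 0.08 (corrected 1.40 ± 0.08). BMF was described above. The stress protein SESN3 went the other way: it measured 259.8, 235 and 286 CPM with DMSO and 105, 116 and 86.8 CPM with both drugs, a difference of -1.34 ± 0.13 (corrected -0.88 ± 0.08). Uncorrected, SESN3 stood at -0.11 ± 0.12 with BEZ-235 alone and 0.32 ± 0.12 with SAHA alone. A test of both drugs against each single drug is not given here for SESN3. CAT, catalase, was at -0.47 ± 0.11 (corrected -0.39 ± 0.09).

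Genes of signalling from ALK and the insulin receptor through PI3K to mTOR were higher about as often as all tested genes, of which 33.2% were higher and 31.2% lower. Of 36, 12 were higher and 15 lower (corrected 14 and 15), and their median was -0.02 (corrected 0.04); the ALK ligand genes ALKAL1 and ALKAL2 had too few counts. At the receptor end, INSR, the insulin receptor, measured 15.04, 13.4 and 14.4 CPM with DMSO and 32.1, 33.4 and 32.1 CPM with both drugs, a difference of 1.19 ± 0.10 (corrected 1.03 ± 0.08), and IRS2, its adaptor, was at 1.01 ± 0.08 (corrected 0.62 ± 0.09). PIK3CD, the PI3K catalytic subunit best known from leukocytes, measured 0.366, 0.235 and 0.178 CPM with DMSO and 8.08, 8.05 and 8.24 CPM with both drugs. It rose by 4.97 ± 0.27 (corrected 4.64 ± 0.26) from a low level, with 0.44 ± 0.39 with BEZ-235 alone and 3.63 ± 0.28 with SAHA alone. The regulatory subunit PIK3R3 fell, at -1.47 ± 0.10 (corrected -1.47 ± 0.08). DDIT4, an inhibitor of mTOR that stress induces, stood at -1.97 ± 0.12 (corrected -2.29 ± 0.08), and RPS6KB1, the mTOR substrate S6 kinase, at -0.91 ± 0.08 (corrected -0.44 ± 0.05). Among 27 output genes of the RAS-MAPK pathway, 10 were higher and 9 lower (corrected 10 and 9). The phosphatase DUSP6 was lower at -1.44 ± 0.15 (corrected -1.45 ± 0.15), and DUSP4 and the feedback inhibitor SPRY4 were higher at 0.73 ± 0.08 (corrected 0.56 ± 0.07) and 0.58 ± 0.07 (corrected 0.44 ± 0.06).

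MYC and MYCN target genes were mostly lower, by less than the cell cycle genes. Of 37, 1 were higher and 31 lower (corrected 0 and 33), with a median of -0.50 (corrected -0.67), -0.15 (corrected -0.15) with BEZ-235 alone and -0.53 (corrected -0.55) with SAHA alone. CAD, which starts pyrimidine synthesis, measured 175, 176 and 187 CPM with DMSO and 56.6, 62.6 and 60.4 CPM with both drugs, a difference of -1.58 ± 0.08 (corrected -1.94 ± 0.06). RCC1, a nuclear transport factor, was at -2.31 ± 0.12 (corrected -2.43 ± 0.11), and MCM7, a helicase subunit, at -1.14 ± 0.07 (corrected -1.42 ± 0.06). The E-box CACGTG, to which MYC and MAX bind, is in capitals in 2 promoters of the list.
LDHA, chr11:18394358-18394457, plus strand: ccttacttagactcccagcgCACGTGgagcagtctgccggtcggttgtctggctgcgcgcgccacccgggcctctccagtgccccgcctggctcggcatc
MCM7, chr7:100101370-100101469, minus strand: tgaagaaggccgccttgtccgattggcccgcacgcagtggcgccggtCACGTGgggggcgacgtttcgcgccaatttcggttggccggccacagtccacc
It stood in 14 of 32 (43.8%) of the promoters of this list and in 10.03% of those of all tested genes.

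Genes that MYC or MYCN is known to repress were more often higher: of 16 tested, 10 were higher and 4 lower (corrected 10 and 4), with a median of 0.59 (corrected 0.39). NDRG2, a growth-restraining gene, measured 11.9, 12.2 and 12.3 CPM with DMSO and 71.9, 75.8 and 75.2 CPM with both drugs, a difference of 2.61 ± 0.09 (corrected 2.38 ± 0.07). The neurotrophin receptor NGFR was lower instead, at -0.96 ± 0.10 (corrected -1.38 ± 0.06). In the MAX network, MXI1, a MYC antagonist, was at 0.91 ± 0.08 (corrected 1.09 ± 0.06), MAX, the shared partner, at 0.73 ± 0.08 (corrected 0.61 ± 0.08), and MXD3 at -1.18 ± 0.16 (corrected -1.56 ± 0.11).

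Ribosomal protein genes rose, and translation factors moved both ways. Of 49 ribosomal protein genes, 47 were higher and 0 lower (corrected 45 and 0), with a median of 0.96 (corrected 0.89), 0.85 (corrected 0.83) with BEZ-235 alone and -0.14 (corrected -0.15) with SAHA alone. RPS27 measured 810.1, 996 and 722 CPM with DMSO and 2323, 2107 and 2487 CPM with both drugs, a difference of 1.45 ± 0.11 (corrected 1.34 ± 0.10), and RPS7 was at 1.34 ± 0.11 (corrected 1.48 ± 0.12). These genes have many near-identical pseudogene copies among which reads can be split, so that single values are uncertain. Of 27 translation factors, 13 were higher and 6 lower (corrected 14 and 9), with a median of 0.23 (corrected 0.26). The elongation factor gene EEF2 measured 1906, 2037 and 1623 CPM with DMSO and 4254, 4816 and 5937 CPM with both drugs, a difference of 1.43 ± 0.12 (corrected 1.09 ± 0.08), and the start-site factor EIF1 stood at 1.63 ± 0.10 (corrected 1.64 ± 0.08). The cap-binding factor EIF4E was lower, at -1.08 ± 0.10 (corrected -0.73 ± 0.10). The host genes of small nucleolar RNAs, many of whose spliced transcripts share the 5′ terminal oligopyrimidine start of ribosomal protein mRNAs, rose further: of 19, 16 were higher and 2 lower (corrected 17 and 2), with a median of 1.32 (corrected 1.32). ZFAS1 measured 17.6, 20.2 and 18.1 CPM with DMSO and 192, 154 and 172 CPM with both drugs, a difference of 3.21 ± 0.09 (corrected 2.90 ± 0.09), and GAS5 473, 546 and 468 CPM with DMSO and 2145, 1624 and 1828 CPM with both drugs, a difference of 1.91 ± 0.10 (corrected 2.16 ± 0.08). SNHG14 and SNHG3 were lower, at -1.22 ± 0.09 (corrected -1.24 ± 0.07) and -0.59 ± 0.10 (corrected -0.59 ± 0.08).

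Lipid synthesis genes fell. Of 33 genes of cholesterol and fatty acid synthesis, 2 were higher and 30 lower (corrected 1 and 31), with a median of -1.22 (corrected -1.17). FADS2, a fatty acid desaturase, measured 401, 395 and 383 CPM with DMSO and 67.8, 73.5 and 72.4 CPM with both drugs, a difference of -2.46 ± 0.08 (corrected -2.81 ± 0.07). SQLE, the epoxidase that commits squalene to sterols, was at -2.13 ± 0.08 (corrected -2.12 ± 0.06). ACSS2, which makes acetyl-CoA from acetate, was higher, at 0.49 ± 0.09 (corrected 0.29 ± 0.08). In glycolysis 10 were higher and 11 lower (corrected 7 and 11) of 24: LDHA, lactate dehydrogenase, measured 678, 777 and 673 CPM with DMSO and 307, 260.4 and 263 CPM with both drugs, a difference of -1.36 ± 0.09 (corrected -1.21 ± 0.06), while the glucose transporter SLC2A3 was at 1.11 ± 0.10 (corrected 1.13 ± 0.09).

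The transcription factor ATF4 was higher, while more genes of a list of its targets and of amino acid supply were lower than higher. ATF4 measured 255, 281 and 231 CPM with DMSO and 1064, 911 and 1001 CPM with both drugs, a difference of 1.96 ± 0.09 (corrected 1.69 ± 0.08), and its partner genes DDIT3 and CEBPB stood at 2.11 ± 0.11 (corrected 1.94 ± 0.09) and 2.33 ± 0.14 (corrected 1.83 ± 0.11). Of 32 genes of that list, which holds ATF4 itself and general genes of amino acid synthesis and tRNA charging, 5 were higher and 18 lower (corrected 4 and 21), with a median of -0.40 (corrected -0.34). The serine enzyme PSAT1 measured 116, 119.9 and 119 CPM with DMSO and 33.1, 32.05 and 34.6 CPM with both drugs, a difference of -1.83 ± 0.09 (corrected -1.56 ± 0.07). SLC7A5, a leucine transporter, was at -1.61 ± 0.09 (corrected -2.01 ± 0.07), and MTHFD2, a mitochondrial folate enzyme, at -1.57 ± 0.09 (corrected -1.26 ± 0.07). Mitochondrially encoded genes were more often lower: of 13, 1 were higher and 8 lower (corrected 1 and 8), with MT-CO1 at -0.45 ± 0.10 (corrected -0.46 ± 0.10). PPARGC1A, a driver of mitochondrial growth, was higher, at 1.46 ± 0.09 (corrected 1.79 ± 0.07).

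Chaperones of the endoplasmic reticulum were lower. Of 23 genes of the unfolded protein response, 5 were higher and 15 lower (corrected 7 and 14), with a median of -0.67 (corrected -0.39). HSPA5, the chaperone BiP, measured 585, 600.2 and 576 CPM with DMSO and 242, 196 and 199.7 CPM with both drugs, a difference of -1.46 ± 0.09 (corrected -1.44 ± 0.07). PDIA4, a disulfide isomerase, was at -1.29 ± 0.07 (corrected -1.45 ± 0.05), and MANF, a secreted stress protein, at -1.68 ± 0.10 (corrected -1.84 ± 0.08). Members that rose included, besides DDIT3, the sensor ERN1 at 1.79 ± 0.12 (corrected 1.60 ± 0.12) and PPP1R15A, which ends the stress block on translation, at 1.76 ± 0.10 (corrected 1.44 ± 0.08). The CCAAT box, part of the stress element of these promoters, is in capitals for 2 of them, on either strand.
HSPA5, chr9:125241430-125241579, minus strand: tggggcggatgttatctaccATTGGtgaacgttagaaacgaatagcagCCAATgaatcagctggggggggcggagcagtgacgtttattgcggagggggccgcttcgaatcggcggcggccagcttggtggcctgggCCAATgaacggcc
PDIA4, chr7:149028591-149028740, minus strand: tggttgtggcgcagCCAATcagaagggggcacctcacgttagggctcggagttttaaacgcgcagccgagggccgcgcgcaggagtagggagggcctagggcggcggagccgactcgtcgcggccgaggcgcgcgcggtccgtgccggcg
It stood in 18 of 22 (81.8%) of this list's promoters and in 36.6% of those of all tested genes. Cytosolic heat shock genes were mixed: of 18, 6 were higher and 7 lower (corrected 6 and 8), with HSPH1 at -1.52 ± 0.15 (corrected -1.15 ± 0.13) and BAG3 at 0.60 ± 0.09 (corrected 0.33 ± 0.07).

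Autophagy and lysosome genes were higher. Of 35, 25 were higher and 2 lower (corrected 25 and 3), with a median of 0.58 (corrected 0.34). GABARAPL1, which coats autophagosomes, measured 4.596, 5.51 and 4.002 CPM with DMSO and 38.7, 31.3 and 32.3 CPM with both drugs, a difference of 2.86 ± 0.13 (corrected 2.83 ± 0.11). CTSB, the protease cathepsin B, was at 1.31 ± 0.07 (corrected 1.15 ± 0.05), and SQSTM1, the autophagy receptor p62, at 1.16 ± 0.09 (corrected 0.87 ± 0.06). GLA, a lysosomal galactosidase, was lower, at -1.08 ± 0.14 (corrected -1.20 ± 0.12). In the BCL2 family 8 were higher and 4 lower (corrected 6 and 6) of 14. Of the proteins that promote death, BCL2L11 (BIM), a FOXO target, and BBC3 (PUMA) were higher at 0.67 ± 0.07 (corrected 0.68 ± 0.06) and 0.94 ± 0.21 (corrected 0.33 ± 0.09), while BID and PMAIP1 were lower at -1.54 ± 0.10 (corrected -1.63 ± 0.08) and -1.13 ± 0.17 (corrected -0.58 ± 0.14). Of those that guard the cell, BCL2 measured 18.8, 20.8 and 23.6 CPM with DMSO and 50.02, 52.5 and 46.4 CPM with both drugs, a difference of 1.23 ± 0.11 (corrected 1.22 ± 0.10), and MCL1 386, 385 and 394 CPM with DMSO and 251, 234 and 241 CPM with both drugs, a difference of -0.68 ± 0.08 (corrected -0.60 ± 0.07).

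Among genes of histone deacetylases and their corepressors, HDAC5, HDAC9 and HDAC11 rose. HDAC9 measured 42.2, 35.9 and 48.7 CPM with DMSO and 137, 144 and 142 CPM with both drugs, a difference of 1.74 ± 0.09 (corrected 2.06 ± 0.07). HDAC5 stood at 1.83 ± 0.09 (corrected 1.41 ± 0.05) and HDAC11 at 1.77 ± 0.14 (corrected 1.40 ± 0.11). KDM1A, the histone demethylase LSD1, and its partner RCOR1 were lower, at -0.57 ± 0.08 (corrected -0.68 ± 0.06) and -0.52 ± 0.07 (corrected -0.50 ± 0.05). Of 23 members, 13 were higher and 6 lower (corrected 8 and 7). Genes that deacetylase inhibitors commonly raise in other cells were higher about as often as all genes: of 23, 9 were higher and 4 lower (corrected 8 and 7), against 33.2% of all tested genes higher. DHRS2 and SLC12A8, at 1.51 ± 0.07 (corrected 1.39 ± 0.05), rose, and TSPYL2 fell, at -0.84 ± 0.10 (corrected -0.96 ± 0.09). H1F0, the linker histone of resting cells, measured 535, 539 and 468 CPM with DMSO and 982, 996 and 1048 CPM with both drugs, a difference of 0.97 ± 0.08 (corrected 0.80 ± 0.07). H2AFZ, the variant histone H2A.Z, measured 270.1, 309 and 271 CPM with DMSO and 101, 87.3 and 91.5 CPM with both drugs, a difference of -1.60 ± 0.09 (corrected -1.69 ± 0.07). The writers of repressive marks DNMT1 and EZH2 were lower, at -1.79 ± 0.08 (corrected -2.06 ± 0.06) and -1.46 ± 0.08 (corrected -1.22 ± 0.06), and CBX7, a Polycomb subunit, and EZH1, the paralog of EZH2 in resting cells, were higher, at 2.32 ± 0.13 (corrected 1.98 ± 0.11) and 0.66 ± 0.09 (corrected 0.53 ± 0.07).

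**Figure D4:**
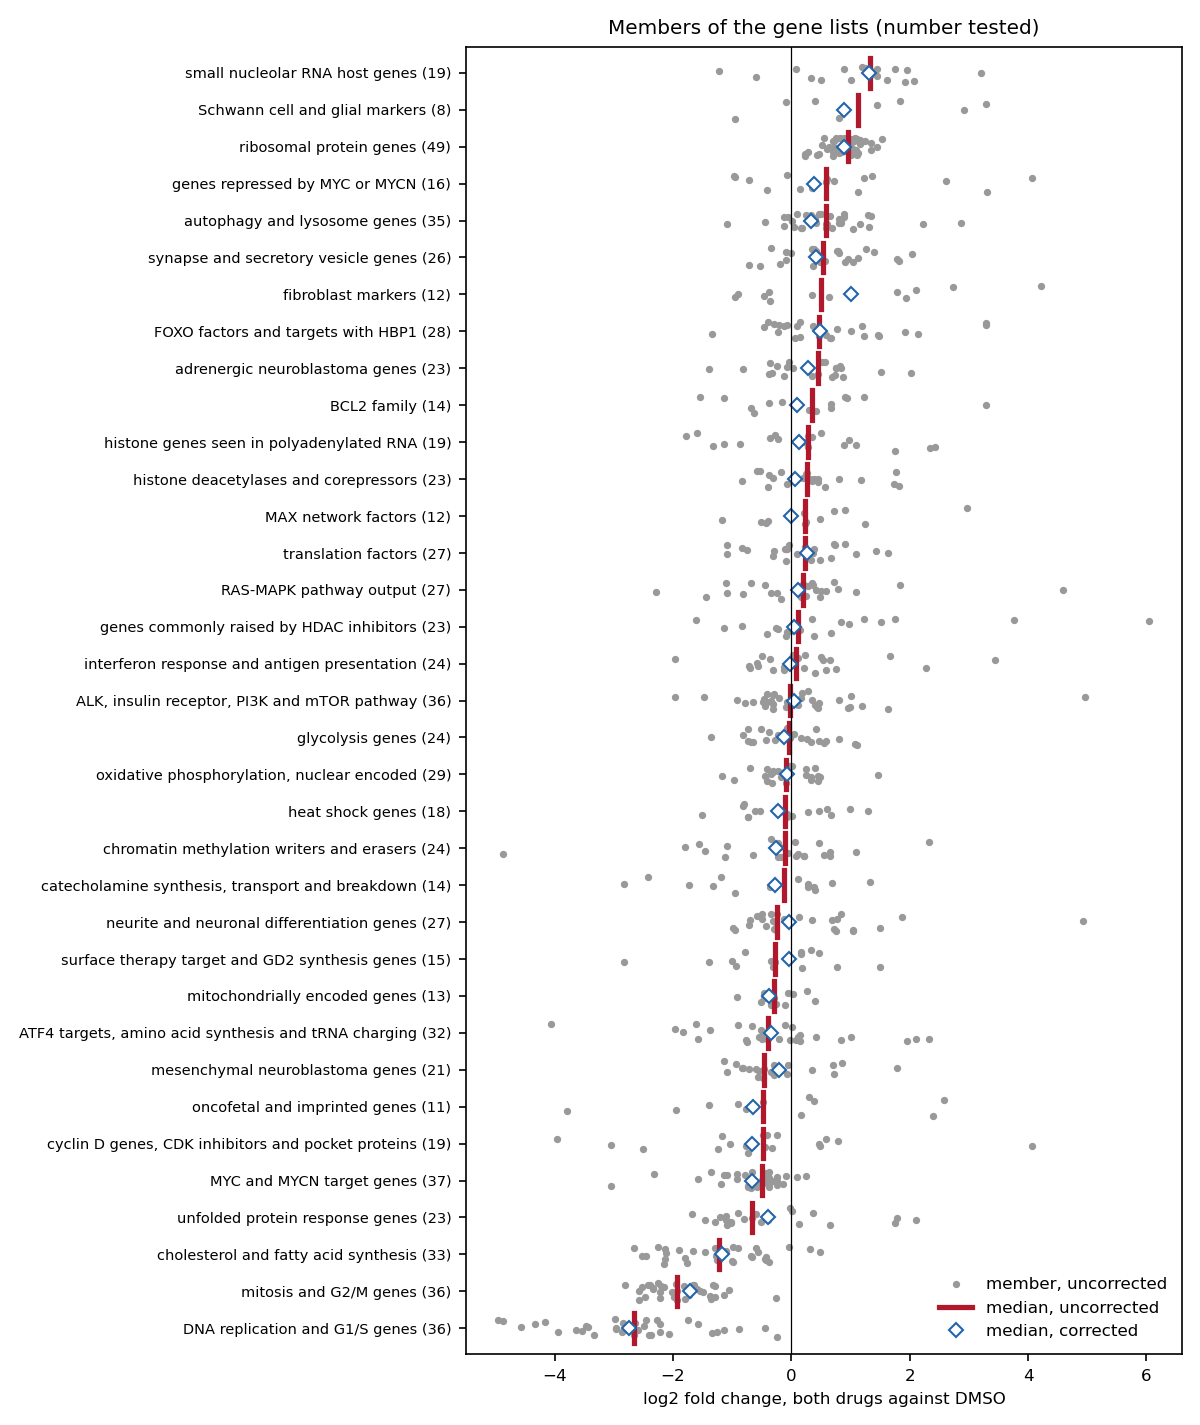
Log2 fold change of both drugs against DMSO (x axis) for the members of 35 gene lists (y axis, number tested in brackets), ordered by uncorrected median. Grey points are members as measured, the red bar is their median and the blue diamond the median after correction. Replication, mitosis and lipid synthesis genes lie at the bottom, and small nucleolar RNA host and ribosomal protein genes near the top.

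The libraries carried markers of noradrenergic neuroblastoma. HAND2, a transcription factor of this lineage, measured 421, 452 and 351 CPM with DMSO and 540.3, 598 and 676 CPM with both drugs, a difference of 0.57 ± 0.10 (corrected 0.26 ± 0.06). Of 23 adrenergic genes, 13 were higher and 5 lower (corrected 13 and 7), with a median of 0.46 (corrected 0.28). SCG2, a secretory granule protein, measured 154, 146 and 148 CPM with DMSO and 676, 563 and 585 CPM with both drugs, a difference of 2.02 ± 0.10 (corrected 2.25 ± 0.10), and STMN2, a growth cone protein, was at 0.85 ± 0.09 (corrected 1.07 ± 0.06). ISL1, a sympathetic transcription factor, was lower, at -0.82 ± 0.11 (corrected -0.76 ± 0.10). TH, which makes the precursor of dopamine, measured 152, 153 and 109 CPM with DMSO and 29.02, 45.5 and 49.8 CPM with both drugs, a difference of -1.74 ± 0.25 (corrected -2.26 ± 0.16), with -1.36 ± 0.25 with BEZ-235 alone and -1.83 ± 0.25 with SAHA alone. The noradrenaline transporter gene SLC6A2, through which labelled MIBG enters the tumour, fell from a low level, at -2.83 ± 0.37 (corrected -3.02 ± 0.37), and the vesicle cytochrome CYB561 was at -2.43 ± 0.15 (corrected -2.72 ± 0.14).

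Synapse and vesicle genes were mostly higher. Of 26, 19 were higher and 3 lower (corrected 16 and 3), with a median of 0.54 (corrected 0.41). RAB3A, which brings vesicles to the membrane, measured 25.2, 29.1 and 24.01 CPM with DMSO and 104, 102 and 115 CPM with both drugs, a difference of 2.04 ± 0.09 (corrected 1.66 ± 0.06). DLG4, the postsynaptic scaffold PSD-95, was at 1.82 ± 0.09 (corrected 1.58 ± 0.07), and VAMP2, a vesicle fusion protein, at 1.39 ± 0.07 (corrected 1.22 ± 0.06). Genes of neurites and neuronal differentiation moved both ways: of 27, 11 were higher and 10 lower (corrected 11 and 12), with a median of -0.24 (corrected -0.04). L1CAM, a neural adhesion molecule and therapy target, measured 367, 306 and 335 CPM with DMSO and 844, 968 and 1027 CPM with both drugs, a difference of 1.49 ± 0.10 (corrected 1.11 ± 0.07), and NTRK3 was at 1.88 ± 0.14 (corrected 1.91 ± 0.14). GAP43, a growth cone protein, measured 119, 114 and 101 CPM with DMSO and 69.9, 65.1 and 71.3 CPM with both drugs. Its difference was -0.69 ± 0.09 (corrected -0.74 ± 0.08), between the -2.66 ± 0.10 of BEZ-235 alone and the 1.12 ± 0.09 of SAHA alone.

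Among surface targets of neuroblastoma therapy, NCAM1 was higher at 0.77 ± 0.07 (corrected 0.65 ± 0.05), and B4GALNT1, which makes the ganglioside GD2, measured 146, 134 and 145 CPM with DMSO and 74.95, 86.5 and 85.2 CPM with both drugs, a difference of -0.78 ± 0.07 (corrected -1.13 ± 0.06). CD24, a small surface glycoprotein, measured 644, 681 and 667 CPM with DMSO and 368, 358 and 315 CPM with both drugs, a difference of -0.94 ± 0.09 (corrected -0.89 ± 0.07). Neither drug alone lowered CD24 (0.01 ± 0.09 with BEZ-235 alone and 0.54 ± 0.09 with SAHA alone), and its interaction was -1.48 ± 0.12 (adjusted p = 3.7e-06; corrected -1.35 ± 0.10, adjusted p = 1.0e-06). Of 15 such genes, 4 were higher and 7 lower (corrected 3 and 6). Of 24 interferon and antigen presentation genes, 8 were higher and 7 lower (corrected 9 and 10). HLA-E, an antigen-presenting molecule, measured 56.7, 57.9 and 48.9 CPM with DMSO and 165, 167 and 187 CPM with both drugs, a difference of 1.67 ± 0.09 (corrected 1.46 ± 0.07), and TAPBP, which loads peptides, was at -0.56 ± 0.09 (corrected -0.85 ± 0.07). Of 11 oncofetal and imprinted genes, 3 were higher and 6 lower (corrected 1 and 6). LIN28B, an RNA-binding protein that blocks let-7, and PEG10 were lower, at -1.95 ± 0.13 (corrected -1.48 ± 0.10) and -0.91 ± 0.09 (corrected -0.86 ± 0.07), and IGF2, a fetal growth factor, was higher, at 2.58 ± 0.41 (corrected 2.17 ± 0.39).

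Mesenchymal neuroblastoma genes were more often lower: of 21, 4 were higher and 12 lower (corrected 3 and 10), with a median of -0.46 (corrected -0.21). FN1, fibronectin, measured 167, 151 and 187 CPM with DMSO and 92.8, 100 and 94.4 CPM with both drugs, a difference of -0.82 ± 0.09 (corrected -0.63 ± 0.07), and NOTCH2 was at -0.83 ± 0.11 (corrected -1.02 ± 0.07). VIM, vimentin, was higher, at 0.71 ± 0.09 (corrected 0.71 ± 0.07). Markers of other cell types were set beside these. The Schwann cell markers SOX10 and CDH19 were at 0 in all 12 libraries, and PTPRC, CD3E and TYROBP had at most 1 count in a group of the comparison. The summed level of 14 fibroblast markers, scaled to each library's total counts, was 159 to 166 CPM with DMSO and 321 to 363 CPM with both drugs. This summed level was 64.6 to 73.6 CPM with BEZ-235 alone and 518 to 599 CPM with SAHA alone, so with both drugs it lay below SAHA alone. Of the 12 tested, 6 were higher and 4 lower (corrected 7 and 4). COL5A1, a fibrillar collagen, measured 34.6, 30.9 and 30.2 CPM with DMSO and 106, 153 and 155 CPM with both drugs, a difference of 2.11 ± 0.16 (corrected 1.66 ± 0.09), and LUM, lumican, 57.2, 62.3 and 62.5 CPM with DMSO and 118, 83.8 and 82.3 CPM with both drugs, a difference of 0.64 ± 0.12 (corrected 1.23 ± 0.09). Scaled to total counts, LUM was at 313 to 338 CPM with SAHA alone and 9.4 to 12.4 CPM with BEZ-235 alone. ACTA2, smooth muscle actin, THY1, a surface glycoprotein, and COL1A2, a collagen I chain, were lower, at -0.46 ± 0.11 (corrected -0.64 ± 0.10), -0.37 ± 0.10 (corrected -0.65 ± 0.07) and -0.95 ± 0.27 (corrected -0.69 ± 0.27). COL1A2 rested on few counts, 105 over the DMSO libraries and 51 over the combination libraries. COL1A1, the other collagen I chain, went the other way, with 70 counts over the DMSO libraries and 1234 over the combination libraries. Of 8 tested Schwann cell and glial markers, 5 were higher and 1 lower (corrected 5 and 1). The summed level of all 12 in that list, scaled in the same way, was 262 to 276 CPM with DMSO and 365 to 397 CPM with both drugs. That of leukocyte markers, of which 1 of 14 could be tested, was 1.53 to 1.69 CPM and 1.59 to 1.65 CPM. Their part in the results was not tested; fewer or more cells of a type and less or more RNA per cell cannot be told apart in bulk RNA.

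Genes with levels past both single drugs were sought by the smaller of the differences from each drug, among genes called against DMSO, BEZ-235 alone and SAHA alone in 1 direction, in both fits. There were 986 above (5.55% of tested genes) and 1173 below (6.6%). Against BEZ-235 alone the combination called 58.0% of genes (corrected 56.0%), with 29.5% higher and 28.5% lower uncorrected. Against SAHA alone it called 58.8% (corrected 52.4%), with 29.9% higher and 28.9% lower. The genes past both drugs were picked for this pattern, so their values describe it. Furthest below lay the zinc finger genes ZNF92, ZNF107 and ZNF43, putative repressors of the KRAB family, with LIN9 and LMO3, a LIM factor of neuroblastoma. ZNF107 measured 25.6, 21.5 and 31.2 CPM with DMSO and 4.41, 4.91 and 2.73 CPM with both drugs, against 18.1, 20.6 and 22.3 CPM with BEZ-235 alone and 18.98, 18.5 and 18.7 CPM with SAHA alone. The zinc finger genes resemble one another, so reads between them may be split. LIN9 measured 30.7, 31.9 and 33.98 CPM with DMSO and 6.59, 5.295 and 5.099 CPM with both drugs, against 20.96, 26.6 and 24.1 and 20.01, 21.1 and 24.7 CPM with the single drugs. For ZNF107 and LIN9 the combination libraries stood apart from the 9 others, which lay closer together. Against DMSO, ZNF92 was at -3.0 ± 0.20 (corrected -2.33 ± 0.16), ZNF107 at -2.71 ± 0.18 (corrected -2.15 ± 0.12), ZNF43 at -2.06 ± 0.19 (corrected -1.53 ± 0.14) and LMO3 at -2.53 ± 0.16 (corrected -1.95 ± 0.15). All 5 are of low GC content, and the correction made each difference smaller.

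Furthest above lay DHRS2, RASA4B, RGS9, COL6A2, BCAN and NDRG1. DHRS2 measured 4.29, 4.28 and 3.91 CPM with BEZ-235 alone and 6.48, 7.76 and 6.45 CPM with SAHA alone, against 104, 77.2 and 114 CPM with both drugs. COL6A2, a collagen VI chain, measured 44.1, 44.2 and 32.3 CPM with DMSO and 142, 214 and 243 CPM with both drugs, against 50.1, 51.4 and 39.3 and 80.2, 65.2 and 62.8 CPM with the single drugs, a difference from DMSO of 2.31 ± 0.21 (corrected 1.79 ± 0.08). RASA4B, a RAS-inactivating protein gene with near-identical copies among which reads may be split, measured 5.07, 5.27 and 7.12 CPM with DMSO and 24.5, 40.8 and 40.1 CPM with both drugs, a difference of 2.59 ± 0.39 (corrected 2.10 ± 0.33). NDRG1 measured 3.76, 2.96 and 3.25 CPM with DMSO and 31.6, 30.3 and 36.4 CPM with both drugs, against 9.49, 13.6 and 12.3 and 8.23, 7.34 and 7.21 CPM. The interaction uses the same libraries by which these 11 genes were picked, so it describes them and is not a separate test. Only for part of these 11 genes did the interaction pass in both fits: it did for DHRS2 (2.33 ± 0.26, corrected 2.30 ± 0.29), LIN9 (-1.53 ± 0.17, corrected -1.16 ± 0.13), ZNF92, ZNF107 and ZNF43. For COL6A2 (1.30 ± 0.28, corrected 0.19 ± 0.12), RASA4B, BCAN, RGS9 and LMO3 it passed uncorrected only, and for NDRG1 in neither fit. The RGS9 interaction was negative, at -0.58 (corrected -0.31). RGS9 thus rose with both drugs by less than the sum of its single-drug changes.

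**Figure D5:**
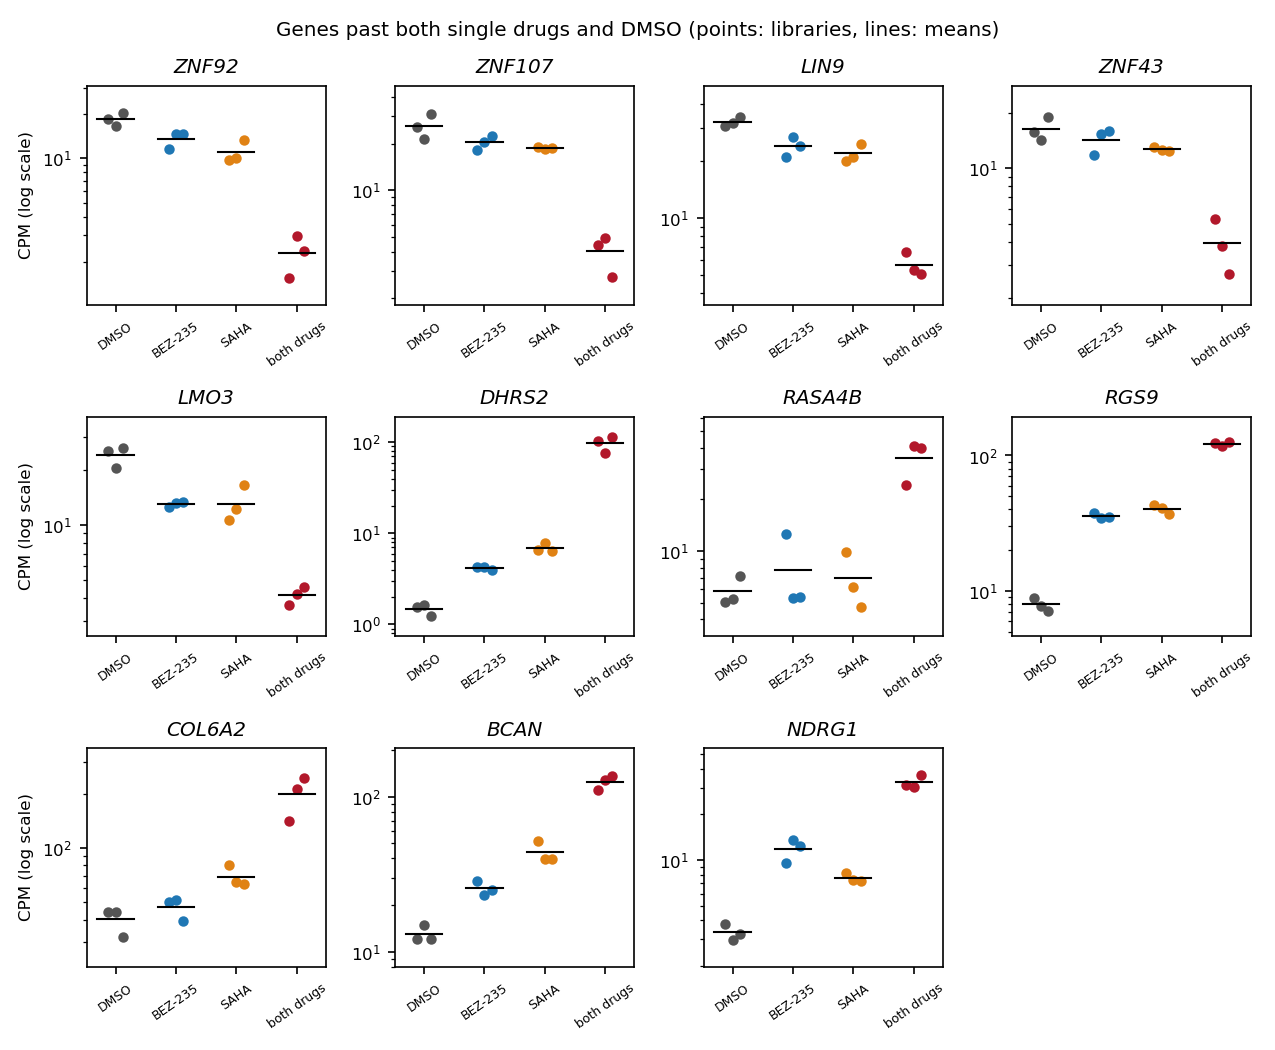
CPM on a log axis (y axis) by group (x axis) for 11 of the 12 genes furthest past both single drugs, uncorrected. Points are libraries and lines are means, n = 3. For each gene the 3 combination libraries lie beyond all other libraries.

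Over all genes the interaction was called for 6834 genes (38.4% of those tested) uncorrected and for 3405 (19.2%) after correction. Uncorrected, 18.9% of tested genes were higher and 19.6% lower, and corrected 9.31% and 9.85%. The correction moved this count by more than 1.5 times, and the count against DMSO by less.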

How the data were processed

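Polyadenylated RNA of 12 NB-1 cultures in 4 groups, labelled as biological replicates, was sequenced, and groups were taken from the treatment labels. The deposited table holds expected counts per gene, which the authors estimated with STAR and RSEM (build hg38), as the submitters' processing notes list; versions and annotation were not given in the sources used here. Counts were rounded. Symbols, transcript GC content and length came from GENCODE 29, which held 17663 of the 17774 genes tested; 17644 had a GC value. One edgeR 4.0.16 model (R 4.3.3, TMM scaling, filterByExpr, robust quasi-likelihood test, 8 residual degrees of freedom) with 4 group means was fitted over all 12 libraries. For the corrected fit, a robust spline with 5 degrees of freedom each for GC content and log2 length of the longest transcript was fitted to each library's log2 CPM (prior count 2) deviations from the mean, and entered as offsets. The scripts were tested on simulated counts. Totals of 17662919 to 79543476 counts set the depth; spread between cultures (biological coefficient of variation 10.6%, corrected 8.04%) limits precision more for well-counted genes. Strand use in counting is not given, so overlapping antisense genes cannot be told apart.

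Named were HBP1, MYCN and ALK, the 12 highest and 12 lowest called in both fits, with a standard symbol, groups that do not overlap and a mean log2 CPM of 3 or more, the 6 and 6 genes furthest past both single drugs, and up to 3 members of a list per direction by smallest p. CDT1, BUB3, LUM, TH, HAND2 and the counts of COL1A1 were added after their values were seen. Members and the 37 lists were chosen with earlier results of these data known. Some genes the rule picks are not reported here. Alternatives were a GC-only correction, a replicate block, relative log expression scaling, DESeq2 1.42.0, other filters, unrounded counts, only the 6 libraries, and libraries left out; the fit of only the 6 libraries with correction was added after seeing the data. Replicate numbers were not used to pair cultures in the main fit.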

Additional observations from a re-analysis of the deposited data

Results flagged for a closer look

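For 15 of the 17 named genes whose interaction is given here, the change that SAHA made differed between cultures with and without BEZ-235, by the test of the interaction term in the uncorrected fit, with edgeR's adjusted p over all genes and n = 3 per group. MYCN, which passed only after correction, and NDRG1, which passed in neither fit, were the other two. Of the 17 genes, 11 passed after correction and 10 in both fits. The 17 were chosen after their values were seen, so these counts describe them and are not a separate test. Interactions of the other 128 genes named with a difference are not listed. Of these, 64 passed uncorrected, 50 after correction and 33 in both fits. In 4 genes the combination rose past the sum of the single-drug changes. DHRS2 had an interaction of 2.33 ± 0.26 (adjusted p = 3.7e-05; corrected 2.30 ± 0.29). For RASA4B it was 1.98 ± 0.55, for COL6A2 1.30 ± 0.28 and for BCAN 0.55 ± 0.18, and none of these passed after correction (1.07, 0.19 and -0.26). The BCAN call was also lost without DMSO replicate 2, BEZ-235 replicates 2 or 3, SAHA replicates 2 or 3 or combination replicate 3, each left out alone, with values of 0.43 to 0.53.

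A positive interaction of another kind was seen where BEZ-235 alone lowered a gene further than both drugs. It was 0.84 ± 0.13 for GAP43 (corrected 0.89 ± 0.12) and 0.66 ± 0.13 for FN1 (corrected 1.08 ± 0.10). Both passed in both fits.

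Negative interactions were seen in genes that the combination lowered further than either drug: ZNF107 at -1.87 ± 0.24, ZNF92 at -1.82 ± 0.26, LIN9 at -1.53 ± 0.17 and ZNF43 at -1.50 ± 0.26. After correction they were -1.24, -1.18, -1.16 and -0.91, and all passed. CD24 had -1.48 ± 0.12 (corrected -1.35 ± 0.10). LMO3 had -0.78 ± 0.22, which did not pass after correction (-0.21 ± 0.20). In genes that both single drugs raised, the combination fell short of their sum: TAC3 had -2.12 ± 0.31 (corrected -2.17 ± 0.33), HBP1 -0.68 ± 0.15 (corrected -0.38 ± 0.10) and RGS9 -0.58 ± 0.13 (corrected -0.31 ± 0.14, not passing).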

How the results depend on the processing

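The counts of genes called with both drugs against DMSO stayed within 1.5 times under every alternative run, at 5201 to 6064 higher and 5184 to 6092 lower. Counts and medians of the gene lists moved more: of 111 such values, 35 moved with the GC and length correction, 36 with GC alone, 30 corrected with only the 6 libraries, 34 with block and correction, and 11 or fewer under each other alternative that kept all libraries of the comparison. With 1 library left out uncorrected, 12 moved without DMSO replicate 3, 7 without combination replicate 2 or 3 and fewer without any other. Corrected, 33 to 39 moved without a combination library. Interactions did not stay within 1.5 times: 3355 genes called higher became 1654 with the GC and length correction, 1509 with GC alone and 1436 with the replicate block and correction, and 3479 called lower became 1751, 1554 and 1489. With 1 library left out they ranged from 2638 to 3517 higher and 2733 to 3953 lower uncorrected, and, corrected and without combination replicates 1, 2 and 3, they were 1666, 1608 and 1214 higher and 1766, 1541 and 1334 lower. The replicate block alone called 5681 genes higher and 5356 lower with both drugs. Uncorrected deviations from group means correlated at -0.561 to 0.577 between libraries of the same number and at -0.480 to 0.499 between those of different numbers. Whether cultures of the same number were handled together was not tested. ALK turned from 0.17 to -0.18 with the correction, -0.14 with GC alone, -0.18 with block and correction, -0.16 corrected with only the 6 libraries, and -0.21 to -0.15 corrected with a combination library left out. The BCAN interaction turned from 0.55 to -0.26, -0.25, -0.26 with block, and -0.29 to -0.24 corrected with a combination library left out. BUB3 turned to 0.0586 with GC alone, 0.0169 corrected with only the 6 libraries and 0.0332 corrected without combination replicate 2. HBP1 against SAHA alone ranged from -1.7e-04 without combination replicate 1 to 0.24 without combination replicate 3. The MYCN interaction, -0.04, ranged from -0.13 without combination replicate 3 to 0.0387 without DMSO replicate 1, with 0.0159 without combination replicate 2. The cause was not tested. With a mean CPM of at least 1 no leukocyte marker was left to give a median. 3 libraries per group and a single line limit what small differences can show.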
